A study of Mus musculus with 18 samples.

Results

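The necroptosis and caspase machinery was followed through 8 genes, Ripk1, Ripk3, Mlkl, Fadd, Casp8, Cflar, Apaf1 and Casp9, taken by name from the 55487 gene IDs in the count tables. All 8 were found, and 7 of them were among the 15318 genes with enough counts to be tested. The gene left out was Mlkl, because its counts were too low. The question behind the choice was whether the loss of Ripk3 transcripts in TFEB KO clones stands alone in this pathway, so Ripk3 was already known to be low in these data and its fall is given as a description of size and of place, not as a discovery.

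The cells were WEHI-231, a murine B cell lymphoma line that serves as a model of immature B cells, in which crosslinking of the B cell receptor (BCR) leads to growth arrest and apoptosis. Parental WEHI-231 cells (genotype WT) were compared with the TFEB KO lines #A-59 and #B-20, each unstimulated (0 h) or after 6 h or 18 h with 10 µg/ml anti-IgM F(ab')2 fragments, all in RPMI with 10% FBS. This gave 9 groups of 2 libraries, 18 in all. Both KO lines grew from single cells after electroporation of Cas9 complexes against Tfeb exons, so each genotype effect is that of 1 clone, and a single-cell clone with intact Tfeb was not analysed here. The study describes the replicates as independent experiments. The p-values rest on the spread between libraries of the same group, estimated jointly over all 9 groups. That spread was unequal, with a chi-square per degree of freedom between the 2 replicates from 3.92 (parental, 6 h) to 67.1 (#B-20, 6 h).

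The shallowest library held 11223588 counts and the deepest 29655262, and the median was 19846544. Tfeb transcripts lay between 79.2 and 99.9 CPM (counts scaled to a common library total, with the TMM factors of edgeR) in the parental libraries, whereas the #A-59 libraries held 25.5 to 40.5 CPM and the #B-20 libraries 34.2 to 54.1 CPM, so both clone ranges lay below the parental range and overlapped each other. All 8 B cell markers examined were present in every genotype, with summed levels of 6053 to 12592 CPM, whereas 5 T cell markers summed to at most 0.882 CPM and 3 erythroid markers to at most 0.0653 CPM. The 5 macrophage markers summed to 6.7 to 17.8 CPM in parental, 13.4 to 38.5 CPM in #A-59 and 6.66 to 14.1 CPM in #B-20 libraries. Among them Lyz2 reached 0.0653 CPM at most, while Itgam reached 26.3 CPM. In such bulk samples, fewer cells with a transcript and less transcript per cell cannot be told apart.

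Necroptosis and apoptosis share their upstream part. Death receptors of the TNF family recruit the kinase RIPK1 and the adaptor FADD, and FADD binds caspase-8, whose activity is tuned by its catalytically inactive relative cFLIP, the product of Cflar. Active caspase-8 starts apoptosis and cleaves RIPK1 and RIPK3, while blocked caspase-8 lets RIPK1 pair with RIPK3, which then phosphorylates MLKL, the pseudokinase that breaches the plasma membrane. The mitochondrial route uses APAF1, which assembles with cytochrome c into the apoptosome and activates caspase-9. Necroptosis thus needs both RIPK3 and MLKL, and it does not need the apoptosome.

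On GRCm38, the build of the counts, Ripk3 lies on chromosome 14 from 55784995 to 55788857 on the minus strand. Its RefSeq promoter window (GRCm38.p6, 250 bases before to 50 bases after the annotated start, minus strand, chr14:55788808-55789107) is shown because Ripk3 is the member with the large change and because TFEB binds E-boxes with the core CACGTG. Capitals mark that core.

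Ripk3: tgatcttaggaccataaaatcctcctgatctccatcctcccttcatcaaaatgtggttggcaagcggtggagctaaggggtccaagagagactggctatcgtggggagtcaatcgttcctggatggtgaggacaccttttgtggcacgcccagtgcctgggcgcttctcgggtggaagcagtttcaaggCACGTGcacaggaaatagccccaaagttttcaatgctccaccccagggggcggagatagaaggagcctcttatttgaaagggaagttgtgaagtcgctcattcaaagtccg

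The core CACGTG reads the same on both strands and occurred once, starting at position −61 relative to the start site. All 8 members had an entry, 9 windows in total with 2 for Ripk1, and the Ripk3 window was the only one of the 9 that held CACGTG. Over all 32544 windows of 300 bases, 2332 (7.17%) held it. The longer palindrome TCACGTGA, which contains the core, was in 320 windows (0.983%) and in none of the 9. The Ripk3 window holds 10 CpG dinucleotides, more than 56.2% of all windows, against 5 in the Casp8 window and 46 in the Apaf1 window. A match is only a stretch of letters, and binding was not measured in these libraries.

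Ripk3 transcripts were present in every parental library and close to 0 in every clone library. At 0 h, 6 h and 18 h, the 2 parental libraries held 16.6 and 17.7, 17.3 and 19.2, and 19.9 and 21.7 CPM of Ripk3. The corresponding #A-59 libraries held 0.677 and 0.311, 1.4 and 0.845, and 0.943 and 1.21 CPM. In #B-20 the libraries of these times held 0.469 and 0.31, 0.246 and 0.784, and 0.569 and 0.224 CPM. The lowest parental library was thus more than 10 CPM above the highest clone library, whatever the time of stimulation. Single clone libraries held between 1.08% and 7.68% of the parental mean at the same time, from raw counts of 5 to 37 per clone library against 223 to 470 per parental library.

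With edgeR's quasi-likelihood test and Benjamini-Hochberg adjustment over all tested genes (FDR), Ripk3 fell in both clones at all times. In #A-59 the log2 fold changes (± SE) were −5.01 ± 0.30 at 0 h, −3.95 ± 0.27 at 6 h and −4.28 ± 0.28 at 18 h. For #B-20 they were −5.45 ± 0.35, −5.23 ± 0.32 and −5.68 ± 0.31 at the same times. The FDR values lay between 1.15e-10 and 2.43e-09. Ordered from the most strongly reduced gene upward among all 15318, Ripk3 took places 57, 90 and 86 in #A-59 and 54, 59 and 46 in #B-20, so from 45 to 89 other transcripts were reduced further. Leaving out single libraries moved the log2 fold changes within −5.75 to −3.7 in #A-59 and −6.5 to −4.55 in #B-20, and every one of these fits kept the call.

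The traces of Ripk3 in the clones were too few for a firm comparison among times. In #A-59 the difference from 0 h was 1.14 ± 0.42 on the log2 scale at 6 h (FDR = 0.0755) and 1.01 ± 0.44 at 18 h (FDR = 0.0706). In parental cells it was 0.09 ± 0.20 at 6 h and 0.29 ± 0.20 at 18 h, and in #B-20 it was 0.31 ± 0.62 and 0.05 ± 0.59, none of which passed. The 2 clones differed from each other, #B-20 against #A-59, by −0.44 ± 0.57 at 0 h, −1.27 ± 0.46 at 6 h (FDR = 0.0413) and −1.40 ± 0.45 at 18 h (FDR = 0.028). The FDR at 18 h passed 0.01 with DESeq2 and without a filter on low counts, and the FDR at 6 h passed without that filter.

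**Figure D1:**
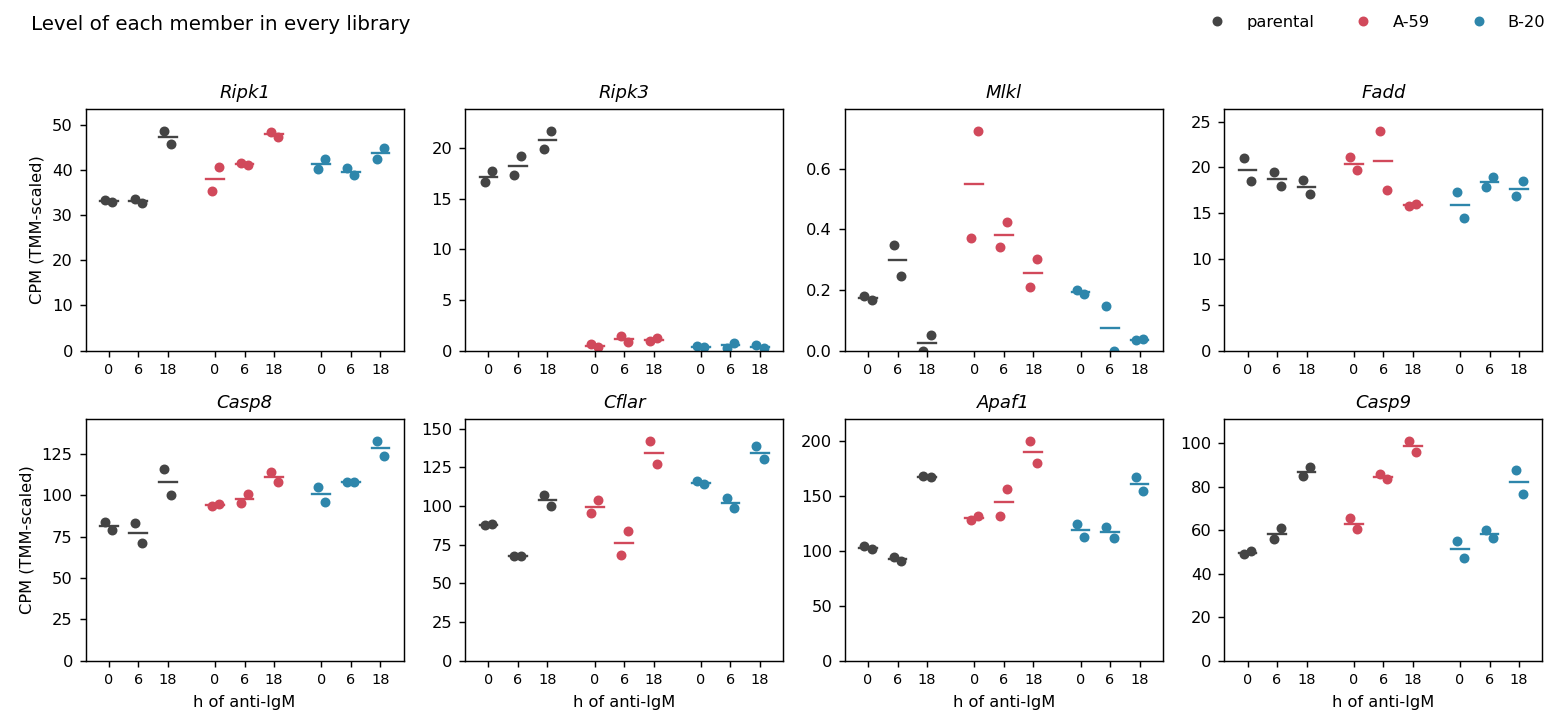
Level of each of the 8 genes in every library in TMM-scaled CPM (vertical axes, linear and starting at 0, each gene with its own range) against hours of anti-IgM. Dots are single libraries and horizontal lines are group means. Ripk3 lies between 16.6 and 21.7 CPM in the 6 parental libraries and does not exceed 1.4 CPM in the 12 clone libraries, whereas the other tested genes stay within a narrow range across genotypes.

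Genes called differentially expressed (DEGs) had an FDR under 0.01 together with a change of more than 1 log2 unit in either direction. By this rule 1 of the 7 tested members was a DEG in #A-59 against parental cells at 0 h, where 4.78% of all tested genes were DEGs, at 6 h (7.91%) and at 18 h (4.92%). The same number, 1 of 7, was found in #B-20 at 0 h (5.16%), 6 h (6.73%) and 18 h (6.21%). In all 6 comparisons that gene was Ripk3, the one that prompted the choice of the list, and no other tested member differed by a factor of 2 in either clone at any time. With DESeq2 the count was also 1 in each of the 6 comparisons.

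Leaving aside the fold threshold, smaller differences passed the FDR of 0.01. At 0 h, 1 of 7 members passed in #A-59 (9.56% of all genes did) and 2 in #B-20 (10.7%). At 6 h, #A-59 had 4 such members (22.7%) and #B-20 had 3 (14.2%). At 18 h, 2 members passed in each clone (10.4% in #A-59 and 14.2% in #B-20). Ripk3 was the 1 member that was lower in each comparison, and all other members that passed were higher in the clone. The median log2 fold change of the 7 members was 0.20, 0.32 and 0.04 in #A-59 at 0 h, 6 h and 18 h, and 0.20, 0.26 and −0.06 in #B-20, against medians of all genes between −0.02 and 0.01.

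**Figure D2:**
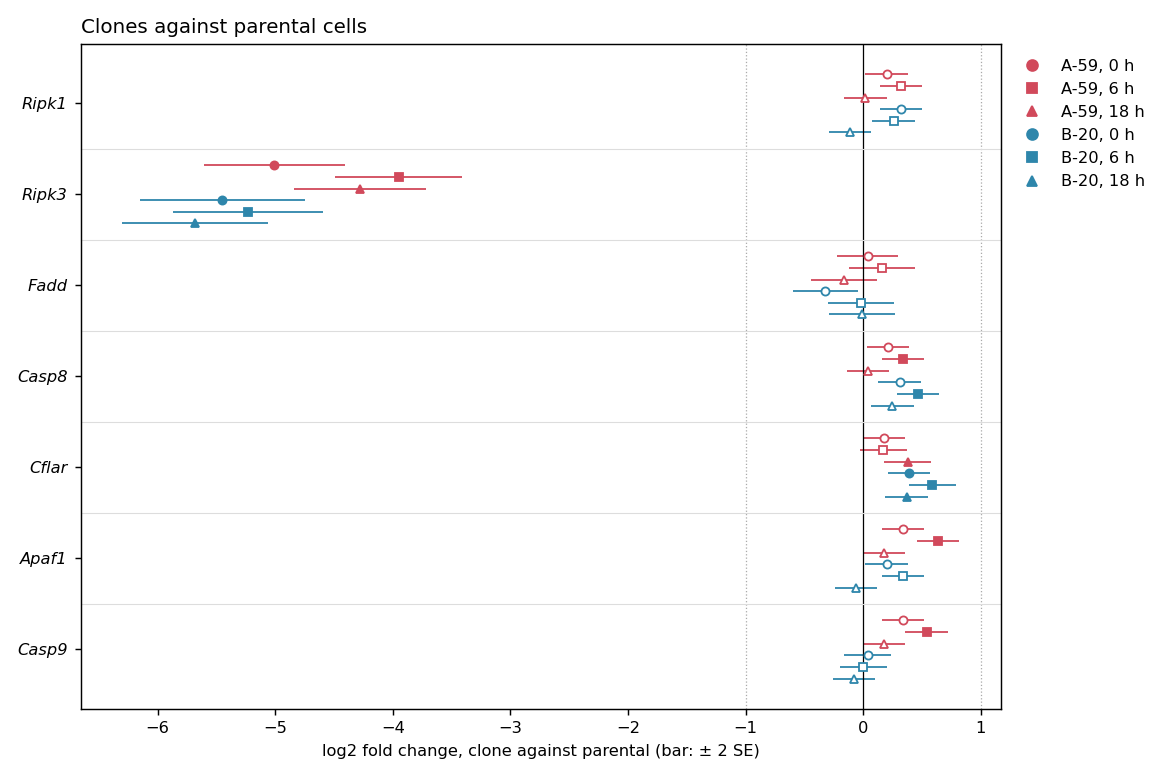
Log2 fold change of each clone against parental cells for the 7 tested genes at 0 h, 6 h and 18 h (horizontal axis, bars of 2 SE to each side). Filled symbols passed an FDR of 0.01, and dotted lines mark a log2 fold change of 1 in either direction. Ripk3 lies between −5.68 and −3.95, and the other 6 genes lie between −0.32 and 0.64.

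Ripk1 encodes the kinase that RIPK3 binds, and it was present at about the same level in all genotypes. At 0 h, 6 h and 18 h, parental libraries held 33.2 and 32.9, 33.6 and 32.6, and 48.6 and 45.7 CPM. #A-59 libraries held 35.2 and 40.7, 41.4 and 41.1, and 48.4 and 47.3 CPM, and #B-20 libraries 40.2 and 42.3, 40.3 and 38.9, and 42.4 and 44.8 CPM at the respective times. Clone libraries were above the parental ones at 0 h and 6 h, and at 18 h the parental range met that of #A-59 while #B-20 lay below both. None of the 6 clone comparisons of Ripk1 passed, with log2 fold changes from −0.11 ± 0.09 (#B-20 at 18 h) to 0.32 ± 0.09 (#A-59 at 6 h, FDR = 0.0106, and #B-20 at 0 h, FDR = 0.0186). The exons of Ripk1 overlap those of Serpinb6a on the opposite strand and of Gm17084 in a later annotation (GENCODE vM39), and non-stranded counting cannot separate reads in such stretches.

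Mlkl, the executioner that RIPK3 activates, was hardly transcribed in any genotype. For 0 h, 6 h and 18 h, its raw counts in parental libraries were 5 and 4, 8 and 6, and 0 and 1. They were 11 and 14, 9 and 7, and 4 and 5 in #A-59, and 3 and 3, 3 and 0, and 1 and 1 in #B-20. The #A-59 libraries held more counts than the parental ones at 0 h and 18 h, while at 6 h they overlapped. No library exceeded 0.725 CPM, and no test was made, so none of these differences is called. A count of 0 allows up to 3 counts. By comparison, Ripk3 in parental cells at 0 h had 6.76 ± 0.308 CPM per kb of exon (SD, n = 2), and Mlkl had 0.0299 ± 0.00187.

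Fadd, the adaptor that links death receptors to caspase-8, was the flattest of the members. Its levels at 0 h, 6 h and 18 h were 21 and 18.5, 19.5 and 18, and 18.6 and 17.1 CPM in parental libraries. In #A-59 they were 21.1 and 19.7, 24 and 17.5, and 15.8 and 16 CPM, and in #B-20 17.3 and 14.5, 17.9 and 19, and 16.9 and 18.5 CPM. The genotypes overlapped at 6 h, and #B-20 lay below parental cells at 0 h and #A-59 did at 18 h, each by little. Log2 fold changes against parental cells ran from −0.32 ± 0.14 to 0.16 ± 0.14 with FDR values of 0.135 or more. Fadd overlaps the antisense transcript Faddos.

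Casp8 was slightly higher in the clones at 6 h. Across 0 h, 6 h and 18 h, parental libraries held 83.7 and 78.8, 83.6 and 71.4, and 116 and 100 CPM. In #A-59 the levels were 93.9 and 94.8, 95.2 and 101, and 114 and 108 CPM, and in #B-20 105 and 96.2, 108 and 108, and 133 and 124 CPM. At 0 h and 6 h every clone library was above the parental libraries, and at 18 h this held for #B-20 alone. The difference at 6 h was 0.47 ± 0.09 in #B-20 (FDR = 0.00101) and 0.34 ± 0.09 in #A-59 (FDR = 0.00956), the latter so close to the threshold that it was lost in 17 of 18 fits that left out 1 library, with FDR values up to 0.194. The #B-20 value was lost in 3 such fits, with FDR values up to 0.0487 (without parental replicate 2 at 6 h).

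Cflar, which encodes the inhibitor cFLIP, was higher in #B-20 than in parental cells at every time. Over 0 h, 6 h and 18 h, parental libraries held 87.4 and 88.2, 67.6 and 67.4, and 107 and 100 CPM. #B-20 libraries held 116 and 114, 105 and 98.5, and 139 and 130 CPM, and #A-59 libraries 95.2 and 104, 68.6 and 83.5, and 142 and 127 CPM at these times. All clone libraries exceeded the parental libraries of the same time, by the smallest margin in 1 #A-59 library at 6 h.

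In the model, Cflar rose in #B-20 by 0.39 ± 0.09 at 0 h (FDR = 0.00716), 0.59 ± 0.10 at 6 h (FDR = 1.27e-04) and 0.37 ± 0.09 at 18 h (FDR = 0.00701), that is 1.31-fold, 1.51-fold and 1.3-fold. In #A-59 it passed at 18 h with 0.38 ± 0.10 (FDR = 0.00894), and it did not at 0 h (0.18 ± 0.09) or 6 h (0.17 ± 0.10). The 6 h value of #B-20 held in all 18 fits without 1 library, whereas the values at 0 h and 18 h of #B-20 and at 18 h of #A-59 lost the threshold in 10, 9 and 12 of them, with FDR values up to 0.06, 0.112 and 0.14. Casp8 and Cflar lie on the same strand of chromosome 1, from 58795233 to 58847503 and from 58711311 to 58758884, and their exons overlap no other annotated gene.

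The apoptosome genes Apaf1 and Casp9 passed as higher in #A-59 at 6 h. At 0 h each already differed by 0.34 ± 0.09 (FDR = 0.0162 for Apaf1 and 0.0161 for Casp9), which did not pass. For Apaf1, parental libraries held 104 and 102, 94 and 90.6, and 168 and 167 CPM at 0 h, 6 h and 18 h. In #A-59 the levels were 128 and 132, 132 and 156, and 200 and 180 CPM, and in #B-20 124 and 113, 122 and 112, and 167 and 154 CPM. The #A-59 libraries were above parental ones at all times, and those of #B-20 were above at 0 h and 6 h and at or below them at 18 h. Apaf1 differed by 0.64 ± 0.09 in #A-59 at 6 h (FDR = 3.06e-05), a 1.56-fold difference that held in every fit without 1 library. In #B-20 at 6 h it differed by 0.34 ± 0.09 (FDR = 0.0111), which passed in 4 of the 8 other alternative settings.

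Casp9 was at 49 and 50.3, 55.9 and 60.8, and 84.7 and 89.1 CPM in the parental libraries of 0 h, 6 h and 18 h. In #A-59 it was at 65.7 and 60.3, 85.6 and 83.5, and 101 and 96.1 CPM, and in #B-20 at 55 and 47.4, 60 and 56.6, and 87.8 and 76.4 CPM. The #A-59 libraries lay above the parental ones at each time, and the #B-20 libraries overlapped them. The difference of 0.54 ± 0.09 in #A-59 at 6 h passed (FDR = 2.26e-04), and the values for #B-20 lay between −0.08 ± 0.09 and 0.04 ± 0.10. Exons of Casp9 overlap those of Cela2a on the opposite strand.

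A direct comparison of the clones with each other tested whether these small differences belonged to one of them. At 6 h, Cflar was higher in #B-20 than in #A-59 by 0.42 ± 0.10 (FDR = 0.00253), and Casp9 was lower, with −0.54 ± 0.09 (FDR = 3.47e-04). These were 2 of 7 members, where 18.7% of all genes passed. At 0 h and 18 h, 0 of 7 members passed by edgeR (8.41% and 16.2% of all genes did), with 3 and 4 members at an unadjusted p under 0.05. DESeq2 passed 0 members at 0 h and 1 at 18 h, which was Ripk3. No member was a DEG by edgeR at 0 h, 6 h or 18 h, where 3.85%, 5.82% and 4.82% of all genes were. Fitted on the groups compared alone, neither 6 h difference passed (FDR = 0.0715 for Cflar and 0.0187 for Casp9). With 1 library left out, Cflar lost the threshold in 2 of 18 fits (FDR up to 0.0543) and Casp9 in 0.

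Fewer members passed at 6 h than at 18 h of BCR stimulation, and the 2 times were not tested against each other. At 6 h against 0 h, 0 of 7 members passed in parental cells (7.34% of all genes did), 1 in #A-59 (6.14%) and 0 in #B-20 (1.29%). The edgeR counts with an unadjusted p under 0.05 were 2, 3 and 0, and DESeq2 passed 1, 2 and 0 members. The member that passed was Casp9 in #A-59, by 0.42 ± 0.09 (FDR = 0.00566), and this call was lost in 9 of 18 fits without 1 library, with FDR values up to 0.0967. Cflar came close to the threshold from the other side, with −0.38 ± 0.09 in parental cells (FDR = 0.0111) and −0.39 ± 0.10 in #A-59 (FDR = 0.0108). Of the 8 alternative settings, 7 brought the parental value and 6 the #A-59 value under 0.01.

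By 18 h, 4 of 7 members had risen in parental cells (32.6% of all genes passed in either direction and 16.4% rose), 4 in #A-59 (31.8% and 14.7%) and 3 in #B-20 (22.8% and 11.4%), and 0 had fallen. No member was a DEG in any response by edgeR or DESeq2. Of all genes, 2.62% and 10.3% were DEGs in parental cells after 6 h and 18 h, 1.39% and 8.76% in #A-59, and 0.385% and 4.8% in #B-20. The apoptosome genes rose in all 3 genotypes. Casp9 rose by 0.81 ± 0.10 in parental cells (FDR = 1.79e-06), by 0.64 ± 0.09 in #A-59 (FDR = 2.23e-05) and by 0.68 ± 0.10 in #B-20 (FDR = 2.91e-05). Apaf1 rose by 0.70 ± 0.09 (FDR = 7.32e-06), 0.54 ± 0.09 (FDR = 1.05e-04) and 0.44 ± 0.09 (FDR = 0.00111). The #B-20 value of Apaf1 lost the threshold without #B-20 replicate 1 at 18 h (0.36, FDR = 0.029) and without #B-20 replicate 2 at 0 h (0.38, FDR = 0.0253).

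The members of the receptor-proximal complex were less uniform at 18 h. Ripk1 rose by 0.51 ± 0.09 in parental cells (FDR = 1.52e-04) and by 0.34 ± 0.09 in #A-59 (FDR = 0.00504), and in #B-20 its difference was 0.08 ± 0.09. Casp8 rose in parental cells by 0.41 ± 0.09 (FDR = 0.00179) and in #B-20 by 0.35 ± 0.09 (FDR = 0.00723), and in #A-59 it differed by 0.23 ± 0.09 (FDR = 0.0507). Cflar rose in #A-59 by 0.44 ± 0.09 (FDR = 0.00101), with 0.24 ± 0.10 in parental cells and 0.23 ± 0.09 in #B-20. Of these calls, Ripk1 in #A-59 and Casp8 in #B-20 lost the threshold in 12 and 14 of 18 fits without 1 library, with FDR values up to 0.111 and 0.106. Casp8 in parental cells lost it in 3 (FDR up to 0.0806) and Cflar in #A-59 in 2 (FDR up to 0.0396), whereas Ripk1 in parental cells kept it in all 18. Fadd passed nowhere, with values from −0.36 ± 0.14 in #A-59 to 0.16 ± 0.14 in #B-20.

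**Figure D3:**
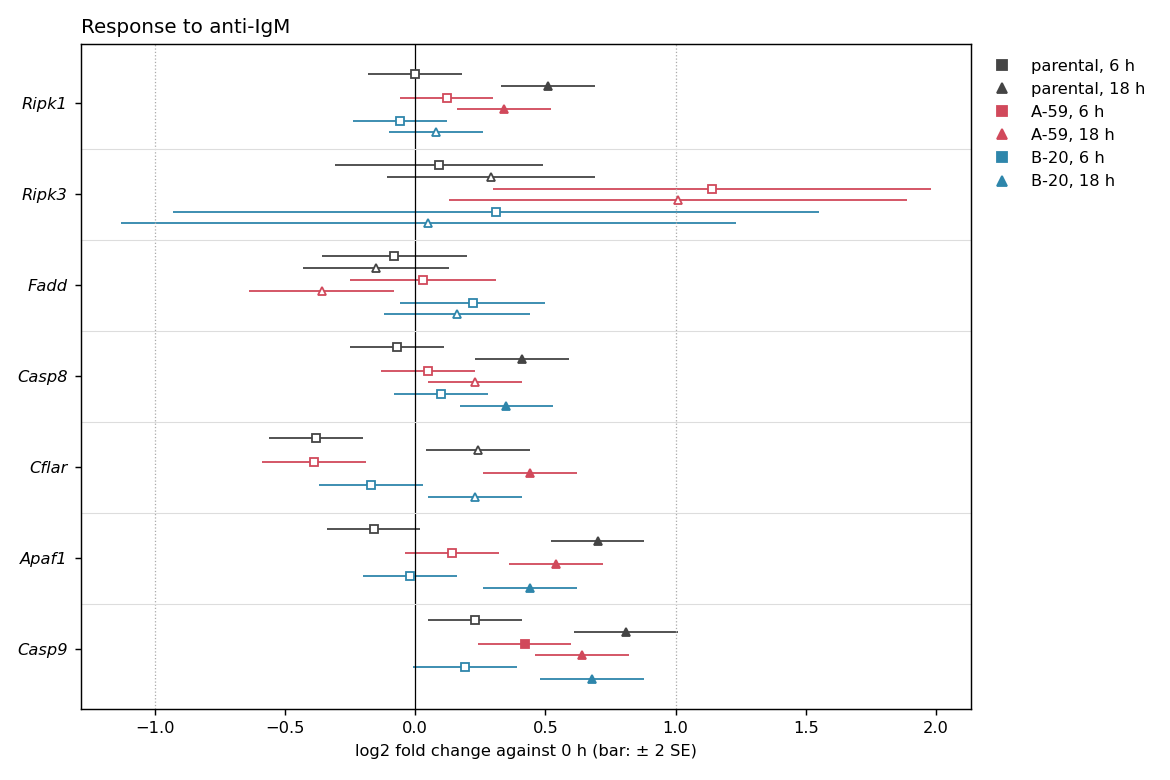
Log2 fold change of 6 h and 18 h of anti-IgM against 0 h for the 7 tested genes in each genotype (horizontal axis, bars of 2 SE to each side). Filled symbols passed an FDR of 0.01, and dotted lines mark a log2 fold change of 1 in either direction. Casp9 and Apaf1 are filled at 18 h in all 3 genotypes, and the widest bars are those of Ripk3 in the clones.

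Whether the response of a clone differed from the parental response was tested by interaction. In this test 0 of 7 members passed for #A-59 at 6 h (0.646% of all genes did) and 18 h (0.0392%), and 0 for #B-20 at 6 h (0.183%) and 18 h (0.222%). The edgeR counts at an unadjusted p under 0.05 were 2, 0, 0 and 1, and DESeq2 also passed 0 in each. The largest difference apart from Ripk3 was that of Ripk1 in #B-20 at 18 h, −0.43 ± 0.13 (FDR = 0.125, interval of 2 SE to each side −0.69 to −0.18). For Ripk3 the differences ran from −0.24 ± 0.64 to 1.05 ± 0.46, intervals too wide to exclude a doubling in either direction in #B-20. Responses that pass in one genotype and not in another, as for Casp8 or Cflar at 18 h, were therefore not shown to differ.

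Per kilobase of exon, the order of levels in parental cells at 0 h was Casp8 with 26.4 ± 1.12 CPM per kb (SD, n = 2), Apaf1 with 9.73 ± 0.127, Ripk3 with 6.76 ± 0.308, Cflar with 6.07 ± 0.0354, Casp9 with 6.04 ± 0.106, Fadd with 5.05 ± 0.447, Ripk1 with 3 ± 0.0173 and Mlkl with 0.0299 ± 0.00187. Cflar and Casp9 did not differ beyond their spread. By this measure Ripk3 stood between Apaf1 and Cflar in parental cells at 0 h, an order that depends on the lengths used. The lengths are unions of all annotated exons, including long and rarely used forms, which lowers the values of Cflar, Apaf1 and Ripk1 in particular, each with over 10 kb of exon.

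How alike 2 genes ran was measured by the root mean square (RMS) distance of their log2 CPM values, each centred on its own mean over the 18 libraries. Ripk3 stood at 2.31 to 2.53 from every other tested member, and the other 6 members stood at 0.13 to 0.45 from each other, with Ripk1 and Casp8 the closest pair. Among all tested genes, those near to Ripk3 included Ovol1 (0.46), Gask1b (0.70), 2900026A02Rik (0.71) and Tnfrsf22 (0.73), where Ripk3 itself varied by an RMS of 2.34 about its mean. Ovol1 encodes a zinc finger transcription factor, and its level averaged 13.9, 0.698 and 0.345 CPM in parental, #A-59 and #B-20 libraries. Tnfrsf22, a decoy receptor gene of the TRAIL receptor type in mice, averaged 5.48, 0.142 and 0.0271 CPM. Both transcripts were low in the clones, as Ripk3 was, and neither is a member.

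For the other members the nearest genes were Arl6ip1 for Ripk1 (0.06), Rnf121 for Fadd (0.09), Map4k4 for Casp8 (0.10), Rictor for Cflar (0.08), Dync1li2 for Apaf1 (0.07) and Zfp513 for Casp9 (0.10). These 6 members varied by RMS values of 0.164 to 0.35 about their means over all 18 libraries. With such flat profiles, many genes lie about as close, and a nearest gene says little by itself.

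Ripk3 has 10 protein-coding neighbours among the 5 nearest on each side, and 7 of them were tested. The 2 that were DEGs in a clone, Nfatc4 and Nynrin, lie beyond its start site, where all 5 neighbours were tested, against 2 of 5 on the other side. The nearer is Nfatc4, 35938 bases away on chromosome 14 from 55824795 to 55833943, which encodes an NFAT transcription factor and was expressed at a low level. Nfatc4 stood at 1.63 and 1.2, 1.88 and 1.27, and 0.357 and 0.726 CPM in the parental libraries of 0 h, 6 h and 18 h. In #A-59 it stood at 0.339 and 0.104, 0.341 and 0.242, and 0.157 and 0.121 CPM, and in #B-20 at 0.535 and 0.31, 0.443 and 0.392, and 0.462 and 0.298 CPM. At 0 h and 6 h no clone library reached a parental one, from 2 to 10 raw counts in the clones against 29 to 45 in parental cells, and at 18 h #B-20 overlapped with parental cells.

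Nfatc4 fell in both clones at 0 h and 6 h. Its log2 fold changes at these times were −2.52 ± 0.45 (FDR = 4.40e-04) and −2.36 ± 0.44 (FDR = 3.98e-04) for #A-59, and −1.75 ± 0.45 (FDR = 0.00966) and −1.89 ± 0.43 (FDR = 0.0032) for #B-20. At 18 h the values of −2.01 ± 0.67 and −0.60 ± 0.50 did not pass. The #B-20 value at 0 h lost the threshold in 14 of 18 fits without 1 library and with DESeq2, with FDR values up to 0.132, and the values at 0 h in #A-59 and at 6 h in #B-20 lost it in 2 and 3 such fits.

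The next gene on that side, Nynrin, lies 65258 bases away, from 55854115 to 55874736. Its parental levels were 5.5 and 6.66, 4.19 and 4.79, and 7.85 and 10.4 CPM at 0 h, 6 h and 18 h, those of #A-59 were 3.12 and 3, 2.27 and 1.39, and 4.35 and 3.32 CPM, and those of #B-20 were 3.01 and 3.16, 3 and 2.35, and 5.97 and 5.19 CPM. Every clone library was below the parental libraries of its time. Nynrin was a DEG in #A-59 at 6 h (−1.24 ± 0.24, FDR = 4.98e-04) and 18 h (−1.26 ± 0.22, FDR = 3.40e-04), the latter with FDR = 0.0198 when parental replicate 2 at 18 h was left out. It passed at 0 h in #A-59 (−0.98 ± 0.21) and #B-20 (−0.97 ± 0.23).

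Further out on that side, Cbln3, Khnyn and Sdr39u1 passed in none of the 6 comparisons. On the other side Cideb passed in none, and Nop9 passed in #A-59 at 6 h alone (−0.49, FDR = 0.001). Adcy4, the closest gene at 900 bases from the 3′ end of Ripk3, and the leukotriene receptor genes Ltb4r1 and Ltb4r2 were too low to be tested, with at most 3, 6 and 20 raw counts in a library. In numbers, 1, 2 and 1 of the 7 tested neighbours were DEGs in #A-59 at 0 h, 6 h and 18 h, where 4.78%, 7.91% and 4.92% of all genes were, while #B-20 had 1, 1 and 0, beside 5.16%, 6.73% and 6.21%. The DNA of the clones was not measured in these libraries, and the part of the locus in the change was not tested.

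**Figure D4:**
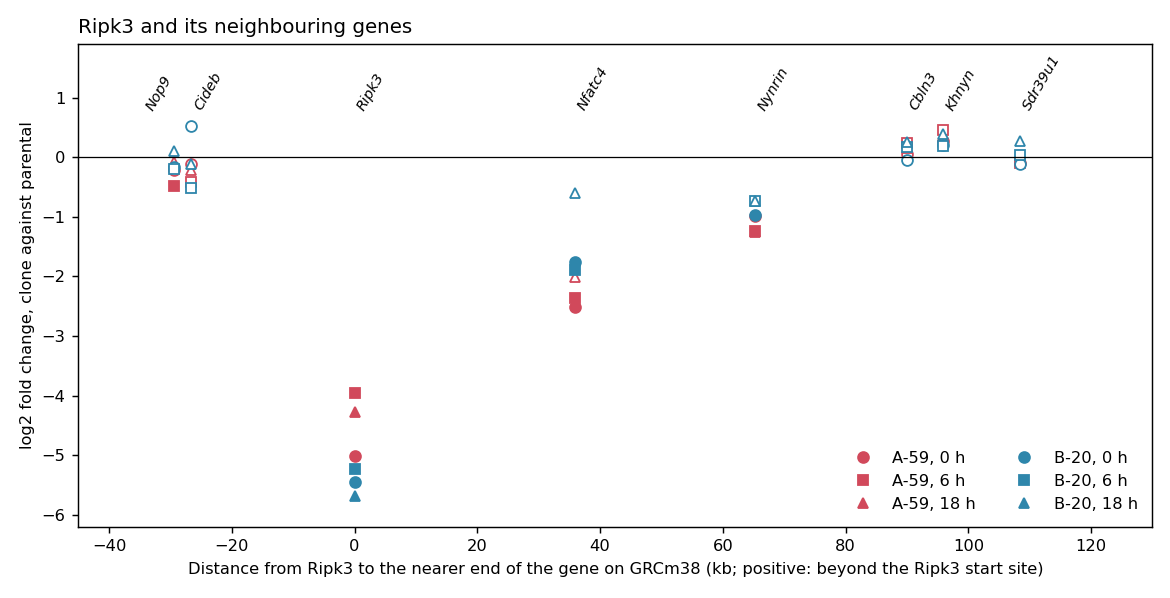
Log2 fold change of each clone against parental cells for Ripk3 and its 7 tested neighbours, by distance from Ripk3 to the nearer end of the gene on GRCm38 in kb (horizontal axis, positive values beyond the Ripk3 start site). Filled symbols were past an FDR of 0.01. Ripk3 lies at 0 kb with values from −5.68 to −3.95, Nfatc4 and Nynrin lie below 0 on the positive side, and the remaining neighbours lie between −0.52 and 0.53.

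Genes that act with the members were taken as 6 lists of 65 genes, of which 59 were tested. Those not tested were Fasl, Tnfsf10, Tnfrsf21, Tlr3, Casp12 and Casp14, with at most 10 raw counts in any library. Against parental cells, 3, 6 and 2 of the 59 were DEGs in #A-59 at 0 h, 6 h and 18 h, where 4.78%, 7.91% and 4.92% of all genes were, and 4, 3 and 6 in #B-20, where 5.16%, 6.73% and 6.21% were. The median log2 fold change of the 59 lay between −0.05 and 0.05 in these 6 comparisons.

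Most of these DEG calls over the 6 comparisons fell in the list of death ligands and receptors. They came from Tnfrsf1b, Fas, Tnfrsf1a, Tnfrsf10b and Lta, most of them counted again at more than 1 time. The clones did not share one direction. Fas was lower in #A-59 at 0 h and higher in #B-20. Tnfrsf1a and Lta were DEGs in #B-20 alone, and Tnfrsf10b in #A-59 alone. Of the 7 tested genes of that list, 3, 2 and 1 were DEGs in #A-59 at 0 h, 6 h and 18 h, and 4, 3 and 3 in #B-20. Of all genes, 4.78%, 7.91% and 4.92% were DEGs in #A-59 at these times, and 5.16%, 6.73% and 6.21% in #B-20. Of the 22 adaptors, ubiquitin enzymes and kinases that act on RIPK1, 0, 1 and 0 were DEGs in #A-59 and 0, 0 and 1 in #B-20. Of the 9 tested further inputs and regulators of RIPK3 and MLKL, the gene Zbp1 alone was a DEG, in #A-59 at 6 h and in #B-20 at 18 h. The 3 other RIPK family kinases held 1 DEG, Ripk4 in #B-20 at 18 h, and the 12 apoptosome partners and death effectors held 1, Cycs in #A-59 at 6 h, a gene with many near-identical processed copies and therefore uncertain.

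The list gene that was a DEG with a lower level in both clones at a shared time was Tnfrsf1b, which encodes TNF receptor 2. Whether this receptor recruits RIPK1 or FADD, as described above for death receptors, was not tested. Parental libraries of 0 h, 6 h and 18 h held 3.29 and 2.44, 5.77 and 6.14, and 1.87 and 1.35 CPM of Tnfrsf1b. #A-59 libraries held 1.42 and 0.621, 1.55 and 1.27, and 0.576 and 0.543 CPM, and #B-20 libraries 0.402 and 0.434, 0.246 and 0.784, and 0.498 and 0.224 CPM. No clone library reached a parental library of the same time. The #B-20 levels rest on few counts. The highest was 0.784 CPM, in a library where 12 raw counts of Ripk3 gave the same level. Tnfrsf1b fell in #A-59 at 0 h and 6 h, with log2 fold changes of −1.41 ± 0.34 (FDR = 0.00648) and −2.05 ± 0.32 (FDR = 6.05e-05). It fell in #B-20 at all 3 times, with −2.76 ± 0.44 (FDR = 1.73e-04), −3.61 ± 0.39 (FDR = 1.29e-06) and −2.09 ± 0.46 (FDR = 0.00263). The #A-59 value at 0 h was lost in 5 of 18 fits without 1 library, with FDR values up to 0.101, and the #B-20 value at 18 h in 3, with FDR values up to 0.0393.

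Among the responses to anti-IgM, the list gene that changed as a DEG in all 3 genotypes was Tnfaip3, which encodes A20, a ubiquitin-editing enzyme that restrains RIPK1 signalling. In parental cells it went from 119 and 94.8 CPM unstimulated to 26.1 and 24.6 after 6 h and 23.9 and 16.2 after 18 h. In #A-59 it went from 110 and 90 CPM to 30.6 and 25.7 and then 54 and 34.9 CPM, and #B-20 went from 125 and 106 to 47.1 and 30.2 and then 66.6 and 47.5 CPM. All stimulated libraries were below the unstimulated ones of their genotype. For parental, #A-59 and #B-20 cells, the log2 fold changes of Tnfaip3 were −2.08 ± 0.27, −1.82 ± 0.27 and −1.57 ± 0.26 at 6 h, and −2.44 ± 0.28, −1.16 ± 0.26 and −1.02 ± 0.26 at 18 h, with FDR values between 1.61e-05 and 0.00823. The 18 h value in #B-20 lost the threshold in 11 of 18 fits without 1 library and the 6 h value in 9, with FDR values up to 0.0611 and 0.0479. The #A-59 values at 18 h and 6 h lost it in 4 and 2 such fits, with FDR values up to 0.0344 and 0.0256.

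Other receptors were chosen after their values were seen. Fas, the receptor for Fas ligand, ranged from 0.205 to 0.904 CPM in parental libraries, from 0.105 to 0.271 CPM in those of #A-59 and from 3.33 to 7.87 CPM in those of #B-20. In #B-20 it rose by 3.29 ± 0.27, 3.19 ± 0.33 and 3.27 ± 0.33 at 0 h, 6 h and 18 h (FDR from 3.95e-08 to 5.59e-07). Unstimulated #A-59 differed from parental cells by −1.72 ± 0.44 (FDR = 0.00992), a value that lost the threshold in 14 of 18 fits without 1 library, with FDR values up to 0.158.

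Tnfrsf1a, which encodes TNF receptor 1, ranged from 5.67 to 9.49 CPM in parental libraries, from 5.95 to 14.4 CPM in those of #A-59 and from 0.682 to 1.42 CPM in those of #B-20. It fell in #B-20 at all times, with log2 fold changes of −3.03 ± 0.26, −2.27 ± 0.23 and −2.83 ± 0.21 (FDR from 7.55e-09 to 4.65e-07), and it rose in #A-59 at 6 h by 0.93 ± 0.17 (FDR = 3.38e-04). Tnfrsf1a overlaps Plekhg6 on the opposite strand. Tnfrsf10b, the mouse TRAIL receptor, fell in #A-59 at all times, with −1.35 ± 0.15, −1.45 ± 0.15 and −1.33 ± 0.17 (FDR from 6.96e-07 to 1.64e-05). For #B-20 the values were −0.65 ± 0.15 (FDR = 0.00422), −0.68 ± 0.15 (FDR = 0.00208) and −0.12 ± 0.15 (FDR = 0.632).

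Zbp1 encodes a nucleic acid sensor that can engage RIPK3 without a death receptor. Its levels were 26.1 and 24, 26 and 17.6, and 91.4 and 50.3 CPM in parental libraries at 0 h, 6 h and 18 h. They were 44.9 and 39.1, 55.7 and 38.3, and 83.4 and 63.7 CPM in #A-59, and 12.2 and 12.1, 11.3 and 9.99, and 14.7 and 14.4 CPM in #B-20. The #B-20 libraries were the lowest at every time, and the parental replicates at 18 h stood far apart. Zbp1 rose by 1.48 ± 0.26 in parental cells by 18 h (FDR = 4.06e-04). It was higher in #A-59 at 6 h by 1.12 ± 0.26 (FDR = 0.00477) and lower in #B-20 at 18 h, with −2.27 ± 0.27 (FDR = 3.52e-05). The #A-59 value lost the threshold without #A-59 replicate 1 at 6 h (0.81, FDR = 0.115) and without parental replicate 2 at 6 h (0.85, FDR = 0.0608).

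**Figure D5:**
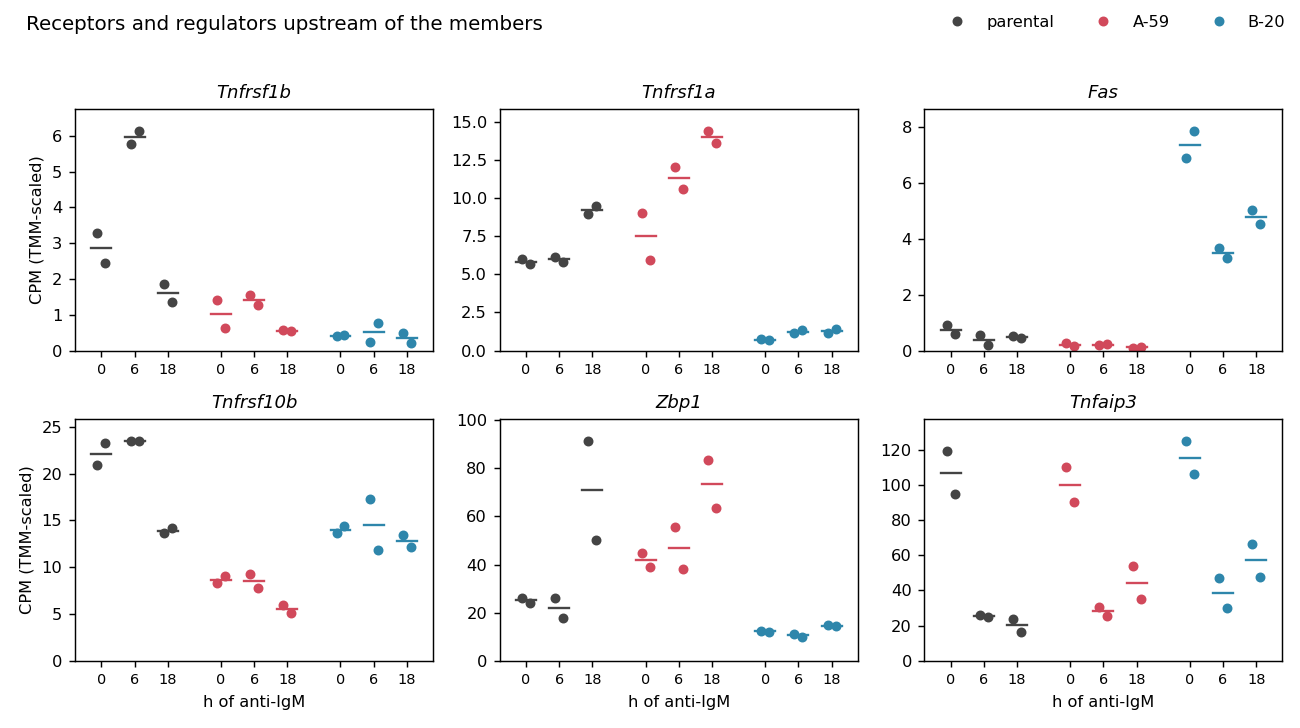
Level of 6 receptors and regulators upstream of the members in every library in TMM-scaled CPM (vertical axes, linear and starting at 0, each gene with its own range) against hours of anti-IgM. Dots are single libraries and horizontal lines are group means. Tnfrsf1b is lower in both clones, Tnfrsf1a and Zbp1 are lowest and Fas is highest in #B-20, Tnfrsf10b is lowest in #A-59, and Tnfaip3 is lower after anti-IgM in all 3 genotypes.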

How the data were processed

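From non-stranded mRNA libraries and single-end reads aligned to GRCm38, the authors deposited whole-number counts per Ensembl gene, not normalized. The submitters' processing notes name bcl2fastq 2.20.0.422, STAR 2.5 and featureCounts 1.5.0-p1. Counting options, such as the treatment of reads that fit several genes, are not given in the sources used here.

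Groups followed the labels. Counts were filtered by filterByExpr, scaled by TMM and fitted with edgeR 4.0.16 (quasi-likelihood, robust, R 4.3.3) to all 18 libraries with 1 mean per group. The 19 comparisons were 6 of clone against parental cells, 6 responses, 4 interactions and 3 of #B-20 against #A-59, each with Benjamini-Hochberg adjustment over all tested genes. A value passed at an FDR under 0.01, and a DEG also needed a log2 fold change above 1 or below −1. SEs were derived from the F statistic. Lengths, GC content and exon overlaps came from GENCODE vM39 (93.2% of IDs, holding 99.6% of counts) and promoters from RefSeq.

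Named were all 8 members, list genes called with 1 sign in both clones at a shared time or in the response of all 3 genotypes, neighbours of Ripk3 called in any clone comparison, the nearest 5 genes to Ripk3 and the nearest 1 to each other member, and Tfeb. Some results that this rule names are not reported here. The members and lists were chosen with earlier results of these data known. Alternatives were DESeq2 1.42.0, its size factors, no filter, a mean of at least 10 counts, only the groups compared, a replicate block, a GC offset (loess, span 0.5), both together, and each library left out. Limits set by a count of 0 cover counting error only, because the reads carry no molecular identifiers.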

Additional observations from a re-analysis of the deposited data

Results flagged for a closer look

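The 2 clones carry the same genotype label, and a direct test of #B-20 against #A-59 (edgeR) gave 0 DEGs among the members. At 6 h, 2 of 7 tested members had an FDR under 0.01 (18.7% of all genes did), and at 0 h and 18 h 0 had (8.41% and 16.2%). Of the 59 tested genes of the pathway lists, 11, 15 and 15 had an FDR under 0.01 at 0 h, 6 h and 18 h, beside the same shares of all genes. Of these lists, 5 genes were DEGs at 1 time or more, where 3.85%, 5.82% and 4.82% of all genes were at the 3 times. Among the members, at 6 h Cflar was higher in #B-20 by a log2 fold change of 0.42 and Casp9 differed by −0.54. Fas was higher in #B-20 by 5.01 at 0 h, 4.03 at 6 h and 5.35 at 18 h. Tnfrsf1a was lower in #B-20, with −3.41, −3.19 and −3.43 at the same times, and Zbp1 was lower with −1.79, −2.14 and −2.34. Lta, which encodes lymphotoxin alpha, differed at 0 h by −2.13, and Tnfrsf10b differed at 18 h by 1.20. With 1 clone per KO line and no clone with intact Tfeb, a difference between clones and an effect of Tfeb that varies between them cannot be told apart.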

How the results depend on the processing

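The number of members called as DEGs was recomputed for all 19 comparisons. It was unchanged in all 342 values with 1 library left out and in 149 of 152 values under the other 8 alternatives. The 3 exceptions were all Ripk3 in #B-20 against #A-59, where the count of 0 became 1 at 6 h with no filter on low counts, and 1 at 18 h with DESeq2 and with no filter. With the replicate number as a block, the count stayed at 1 in the 6 clone comparisons and at 0 in the other 13. Deviations of same-numbered libraries from their group means correlated above 0.1 in 14 of 36 group pairs (range −0.0258 to 0.32). Whether the numbers mark paired experiments was not tested, and the main fit did not pair them. With the block, 1746 of all genes passed in #A-59 against parental cells at 0 h, against 1465 without it.

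Of 28 member values past the FDR of 0.01, 14 passed under every alternative, 14 lost the threshold under some and 0 changed sign. The values that changed sign were those of Ripk3 between groups with few counts. Its #B-20 difference of 18 h from 0 h was −0.09 with a GC offset and −0.09 with block and GC offset, against 0.05. With 1 library left out, this difference ranged from −0.79 to 0.52, that of 6 h from −0.65 to 0.99, the #B-20 response minus the parental one from −0.73 to 0.9 at 6 h and from −1.05 to 0.27 at 18 h, and #B-20 against #A-59 at 0 h from −0.81 to 0.31. Of 64 further member values with an unadjusted p of 0.05 or more, 22 changed sign under some alternative, none larger than 0.18, and 0 passed under any. Depth limits Mlkl, Ripk3 and Tnfrsf1b in the clones, Nfatc4 and Fas, each with few counts per library.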
